A study of Mus musculus with 47 samples.

Results

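The aortas examined here were taken 4 hr after the last of 10 daily exposures to welding fume (GMA-SS, from gas metal arc welding of stainless steel) or to air. They were chosen by their labels, tissue aorta and recovery time 4 hr, and make up 7 of the 47 arrays of the series, 3 from GMA-SS mice and 4 from air mice. GMA-SS mice breathed 40 mg/m3 of fume for 3 hr on each of the 10 days, and air mice breathed air on the same schedule. All were male C57BL/6J mice of 6 weeks of age when exposure began, with no engineered allele, and each array came from another mouse. The study's design gives 4 mice per group. The fourth GMA-SS aorta at 4 hr was not analysed here. The other arrays of the series are of aorta at 28 d after exposure and of lung and whole blood cells at both times, and of these only the 8 aorta arrays of 28 d and the blood arrays of the same 7 mice are used below. Total RNA of each homogenized aorta was amplified, labeled and bound to an Illumina mouse beadchip, on which the mean brightness of the beads of a gene is its signal. The 7 arrays lay on 1 beadchip, air before GMA-SS along the chip, so that position and exposure cannot be told apart.

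The aorta wall is built of layers of smooth muscle between elastic sheets, with a lining of endothelium and an outer coat of fibroblasts, collagen and nerve endings. Around the mouse aorta lies fat, much of it brown, and the vessel runs from the heart along the muscles of the back. Type I interferons bind a receptor that acts through the kinases JAK1 and TYK2 to form a complex that holds STAT2 and IRF9 and enters the nucleus. There it switches on antiviral genes, among them *Irf7*, which amplifies the response, and *Usp18*, which damps it at the receptor. Interferon gamma induces an overlapping set, which includes the GTPases of the GBP and IRG families and genes of antigen presentation.

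The complex that holds STAT2 and IRF9 binds repeats of GAAA with a spacing of a pair of bases. This pattern, GAAANNGAAA, or TTTCNNTTTC on the other strand, was searched in the RefSeq windows of build GRCm38.p6, which run from 250 bases before to 50 bases after a start site. Overlapping matches were each counted. It stood in at least 1 window of 1079 of 27025 genes (3.99%) and of 273 of the 7659 tested genes that have a window (3.56%), against 25 of the 84 measured interferon genes with a window (29.8%). The interferon genes that were higher on all 3 GMA-SS arrays than on all 4 air arrays held it in 13 of 26. The sequences of 4 such genes are printed because these genes carry the results below, each 100 bases from 5′ to 3′ on the strand of its gene. Capitals mark the matches. *Isg15* lies on the minus strand at chr4:156200827-156200926, *Gbp3* on the plus strand at chr3:142559944-142560043, *Ifit3* on the plus strand at chr19:34583343-34583442 and *Irgm2* on the plus strand at chr11:58214877-58214976.
Isg15: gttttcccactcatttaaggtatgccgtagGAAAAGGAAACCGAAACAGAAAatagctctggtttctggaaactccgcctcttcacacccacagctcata
Gbp3: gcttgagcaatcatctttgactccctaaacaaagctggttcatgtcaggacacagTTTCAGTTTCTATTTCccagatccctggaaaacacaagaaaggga
Ifit3: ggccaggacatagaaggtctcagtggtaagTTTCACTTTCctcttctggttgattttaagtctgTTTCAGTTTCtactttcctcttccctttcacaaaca
Irgm2: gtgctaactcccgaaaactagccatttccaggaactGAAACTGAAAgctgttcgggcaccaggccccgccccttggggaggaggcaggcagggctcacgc
*Isg15* held 3 overlapping matches, the first of which began 78 bases before its start site. The first match of *Gbp3* began 45 bases, that of *Ifit3* 156 bases and that of *Irgm2* 64 bases before the start. *Ifit3b* carries the same 100 bases as *Ifit3* at chr19:34607739-34607838. These are matches of letters, and no binding was measured.

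Before exposure is considered, the 7 samples differed in how much other tissue they held. Signals are given as log2 values after removal of background and quantile normalization over the 15 aorta arrays, and a gene was above background where its detection p was under 0.05. Defining genes of smooth muscle, elastic fiber and endothelium, *Myh11*, *Eln* and *Cdh5*, were above background on every array, while some dimmer wall genes, such as *Kdr* and *Fbln5*, were above it on 0 of 7. *Myh11*, the smooth muscle myosin, had 11.59, 11.59 and 11.44 on GMA-SS arrays 1 to 3 and 11.56, 11.52, 11.32 and 11.80 on air arrays 1 to 4. *Eln*, which encodes elastin, had 10.39, 10.54 and 9.82 on the GMA-SS arrays and 10.06, 9.93, 10.24 and 10.25 on the air arrays. *Cdh5*, the cadherin of endothelial junctions, lay between 7.54 and 7.79 in GMA-SS and between 7.47 and 7.80 in air. The groups overlapped for all 3 genes, and the labeled tissue was present on every array.

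Genes of the surrounding fat varied little. *Ucp1*, which uncouples respiration in brown fat, had 14.21, 14.21 and 14.28 in GMA-SS and 14.21, 14.27, 14.22 and 14.34 in air. The mean of the 23 measured fat genes lay between 11.07 and 11.15 on GMA-SS arrays and between 11.10 and 11.15 on air arrays. Every sample thus held brown fat RNA at a like level. Bright genes of heart muscle, such as *Nppa*, *Myh6* and *Myl7*, were also above background on every array, whereas *Ryr2* was above it on 0 of 7. *Nppa*, atrial natriuretic peptide, had 10.62, 11.14 and 10.41 in GMA-SS and 11.21, 11.12, 11.26 and 10.93 in air, and the mean of the 12 measured heart genes lay between 7.78 and 8.15 in GMA-SS and between 7.87 and 8.27 in air.

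Skeletal muscle was another matter. *Acta1*, skeletal muscle actin, had 4.72, 4.82 and 12.10 on GMA-SS arrays 1 to 3 and 4.74, 10.35, 12.19 and 4.68 on air arrays 1 to 4, and was above background on 1 of 3 GMA-SS and 2 of 4 air arrays. *Tnnc2*, the troponin C of fast fibers, had 4.61, 4.67 and 10.68 in GMA-SS and 4.70, 9.02, 11.15 and 4.70 in air. *Pvalb*, parvalbumin, which buffers calcium in fast fibers, had 4.78, 4.74 and 9.02 in GMA-SS and 4.93, 7.88, 11.08 and 4.71 in air. GMA-SS replicate 3 and air replicates 2 and 3 were therefore high for these genes, and the other 4 arrays were at background. Over the 21 measured skeletal muscle genes the mean was 5.64, 5.73 and 8.28 in GMA-SS and 5.84, 7.33, 8.88 and 5.64 in air. As the muscle was in 1 GMA-SS and 2 air arrays, its genes had a median log2 fold change, GMA-SS minus air, of -0.32 over the list. That of *Acta1* was -0.78 with all arrays and 0.62 without air replicate 3.

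Genes of sympathetic neurons followed another order. *Th*, tyrosine hydroxylase of noradrenaline synthesis, had 4.85, 4.65 and 6.84 in GMA-SS and 4.63, 4.52, 5.69 and 4.59 in air, and *Dbh*, dopamine beta-hydroxylase of the same pathway, 4.82, 4.47 and 6.89 in GMA-SS and 4.74, 4.58, 5.73 and 4.53 in air. *Stmn2*, a regulator of microtubules in growing neurites, had 6.47, 6.11 and 8.68 in GMA-SS and 5.67, 6.03, 7.67 and 5.82 in air. All 3 were highest in GMA-SS replicate 3 and next in air replicate 3. Air replicate 2, which held skeletal muscle, had no more of them than the highest of the arrays without it. Of the 3 samples with skeletal muscle, then, 2 also held the genes of sympathetic neurons.

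**Figure D1:**
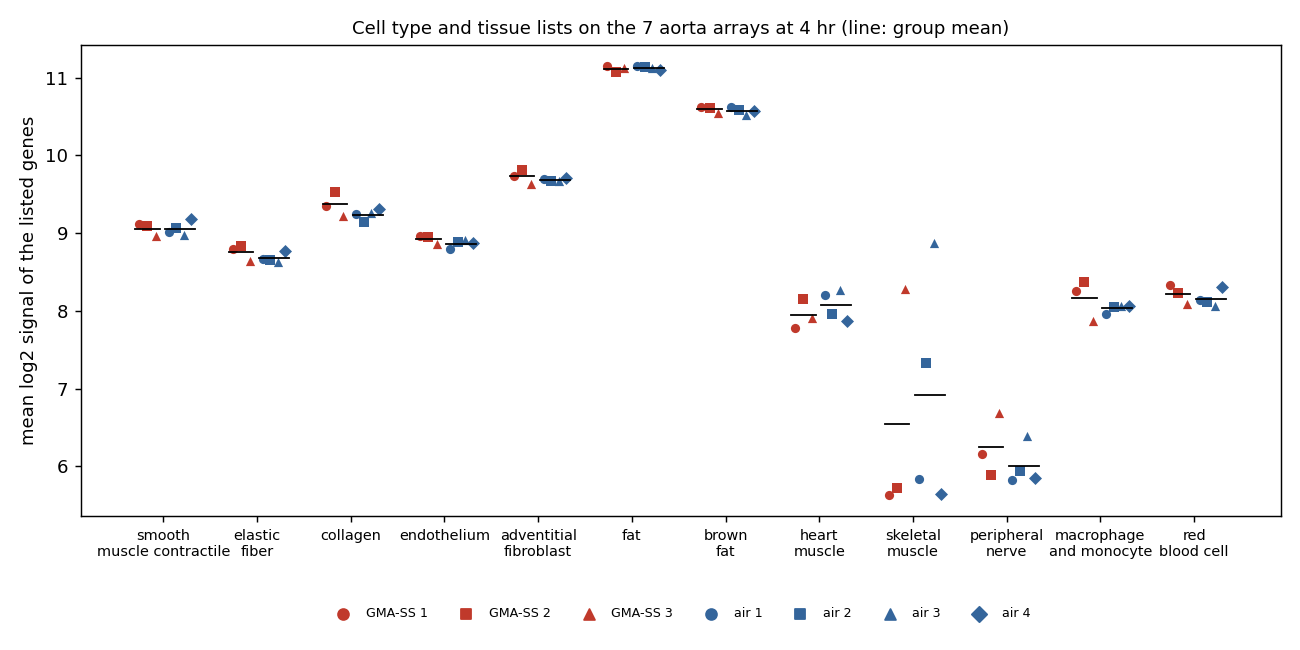
Mean log2 signal (vertical axis) of the measured genes of 12 cell type and tissue lists (horizontal axis) on each of the 7 aorta arrays at 4 hr, GMA-SS left (red) and air right (blue) in each column, with a line at the group mean. Skeletal muscle runs between 5.64 and 8.28 in GMA-SS and between 5.64 and 8.88 in air, while fat runs only between 11.07 and 11.15 in GMA-SS and between 11.10 and 11.15 in air.

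To find which genes vary with the muscle, the mean of the skeletal muscle list was entered as a covariate in limma over all 15 aorta arrays. Of the 9850 genes tested 18 (0.183%) varied with it at a Benjamini-Hochberg adjusted p under 0.05, and 14 of them were genes of the list itself, which made the score. The other 4 were *Myl2*, *H19*, *Dusp26* and *Syt1*. *Myl2*, a regulatory myosin light chain of heart and slow muscle fibers, had 4.62, 4.62 and 9.03 in GMA-SS and 4.54, 6.54, 8.59 and 4.44 in air (adjusted p 2.3e-05), which follows the skeletal muscle order. *Syt1*, the calcium sensor of synaptic vesicles, had 4.71, 4.55 and 7.04 in GMA-SS and 4.58, 4.62, 6.33 and 4.53 in air (adjusted p 0.035), which is the order of the neuron genes. None of the 93 measured genes of the vessel wall and none of the 106 measured interferon genes passed that test, in which 361 of all genes had an unadjusted p under 0.05. As only 0.183% of all genes passed, none passing in lists of this size says little. Among the 106 interferon genes 3 (2.83%) had an unadjusted p under 0.05, against 3.67% of all genes. Wall genes with such a p by limma included *Acta2* (0.029), *Col14a1* (0.031), *Sncg* (0.040) and *Mfap5* (0.046). Of these *Sncg* rose with the muscle mean (coefficient 0.21). *Acta2* (-0.05), *Col14a1* (-0.09) and *Mfap5* (-0.07) fell with it.

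The comparison of GMA-SS with air asks whether inhaled fume alters gene expression in a vessel remote from the lung. In limma's test, fitted over the 15 aorta arrays, 0 of 9850 genes were higher (0%) and 0 were lower (0%) at an adjusted p under 0.05. The lowest adjusted p was 0.364, for *Ifi27l2a*, and 382 genes had an unadjusted p under 0.05. That is no more than this threshold passes on average among 9850 genes where nothing differs. When arrays were weighted by their quality 2 genes passed, *Ifi27l2a* and the histone gene *H3c14*, named for that alone. At the thresholds that the study set for aorta, with unadjusted p below 0.05 and folds of 1.1 or more, 170 genes (1.73%) were higher and 196 (1.99%) lower. This split turned with the processing, to 224 higher and 143 lower with each array scaled to its 75th percentile, to 151 and 144 with no background correction, and to 80 and 27 with the normalized values of the authors, which differ in several steps and in the genes kept. For 356 genes (3.61%) the lowest GMA-SS array exceeded the highest air array, and for 522 (5.3%) the highest GMA-SS array was under the lowest air array. Without GMA-SS replicate 2, 222 genes passed the study's thresholds in place of 366. Below, "past the study's thresholds" refers to these unadjusted tests, and no gene named with them passed after adjustment over all genes.

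Genes that interferon induces were mostly higher in GMA-SS by their means. Of 175 listed interferon genes 106 were measured, 90 of which had a mean above air and 16 below. Past the study's thresholds 31 were higher and 1 lower, beside the 1.73% and 1.99% of all genes. On all 3 GMA-SS arrays 33 were above, and 2 below, all air arrays, beside 3.61% and 5.3% of all genes. Their median log2 fold change was 0.22, against -0.01 over all genes. A gene was kept if above background on at least 3 aorta arrays, so a dim gene could enter through the group where it was high. These lists include *Irf7* and *Oas2*, which were above background on all 3 GMA-SS arrays and on no air array at 4 hr. The size of the change differed between mice. Over the 106 genes the mean was 7.63, 7.95 and 7.46 on GMA-SS arrays 1 to 3 and 7.37, 7.44, 7.38 and 7.37 on air arrays 1 to 4. Among the GMA-SS arrays replicate 2 was the highest for 80 genes and replicate 3 the lowest for 77, and the highest of all 7 arrays was GMA-SS replicate 2 for 71 genes. Without that array the median was 0.11. In a homogenized vessel a change in the number of cells of a type and a change in RNA per cell cannot be told apart, for these genes and for those that follow.

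Transcription factors come first. All 10 listed were measured and 9 had a mean above air. Those higher past the study's thresholds were 3, *Stat2*, *Irf9* and *Irf7*, beside 1.73% of all genes. *Stat2*, which serves type I and III interferons, had 5.88, 6.13 and 5.58 in GMA-SS and 5.24, 5.22, 5.24 and 5.19 in air. The log2 fold change was 0.64 (SE 0.15, n = 3 GMA-SS and 4 air arrays), with an unadjusted p of 0.00086 and an adjusted p of 0.9995 by limma. *Irf9*, which gives that complex its grip on DNA, had 7.83, 8.59 and 7.55 in GMA-SS and 7.04, 7.26, 7.11 and 6.95 in air, a log2 fold change of 0.90 (SE 0.28), and of 0.60 without GMA-SS replicate 2. For both genes each GMA-SS array lay above every air array.

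*Irf7*, the factor that amplifies interferon production, had 5.37, 6.46 and 5.30 in GMA-SS and 4.73, 4.91, 4.93 and 4.80 in air. It was above background on each of the 3 GMA-SS and on 0 of 4 air arrays, so that only a bound can be given, at least 1.8-fold higher in GMA-SS. This bound sets the GMA-SS mean against, for each air array, its own signal or, if that was higher, the lowest signal called above background. *Irf1*, a factor that interferon gamma induces strongly, overlapped between groups, with 8.61, 8.70 and 8.42 in GMA-SS and 8.31, 8.47, 8.43 and 8.44 in air.

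Of the interferons the list held *Ifnb1* and *Ifng*, the genes of interferon beta and gamma, which were above background on 0 of 7 arrays. *Ifna15*, of the interferon alpha family and named after its values were seen, was above it on all arrays, with 5.82, 5.67 and 5.90 in GMA-SS and 5.62, 5.72, 5.31 and 5.65 in air, which overlap. Members of that family are alike in sequence, and a probe may not tell them apart. Of 14 genes of interferons, receptors and their signaling 10 were measured, with a median log2 fold change of 0.00. Past the study's thresholds *Usp18* was higher and *Jak2* lower, beside 1.73% and 1.99% of all genes. *Jak2*, a kinase of the interferon gamma receptor, had 7.23, 7.04 and 7.19 in GMA-SS and 7.35, 7.37, 7.31 and 7.23 in air. Its detection p was under 0.05 on 1 of 3 GMA-SS and 4 of 4 air arrays, a call that need not follow the signal, since some bright entries of this array, *B2m* among them, also miss it. *Jak2* was no longer past the thresholds with the skeletal muscle mean as a covariate (unadjusted p 0.057) or without the 3 arrays that hold skeletal muscle (unadjusted p 0.179).

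*Usp18*, which strips ISG15 from its target proteins and damps the type I receptor, had 7.41, 9.26 and 7.18 in GMA-SS and 6.31, 6.68, 6.44 and 6.39 in air. *Isg15*, the ubiquitin-like protein that interferon induces, had 7.65, 8.79 and 7.13 in GMA-SS and 6.62, 6.96, 6.79 and 6.78 in air. For both, GMA-SS replicate 2 stood far above the other arrays, and replicates 1 and 3 were still above every air array. *Isg15* was 2.10-fold higher (log2 fold change 1.07, SE 0.37), and 0.60 on the log2 scale without GMA-SS replicate 2, where *Usp18* had 0.84 in place of 1.49. The 5 measured genes of ISG15 and its conjugation all had means above air. Those past the study's thresholds were these 2, beside 1.73% of all genes that passed higher. *LOC100048346* had the highest fold among genes past the study's thresholds whose groups did not overlap. Its values were 7.48, 9.32 and 6.94 in GMA-SS and 6.24, 6.55, 6.40 and 6.23 in air, the same pattern as *Usp18*. It is a locus name of the array, and no role is given to it here.

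**Figure D2:**
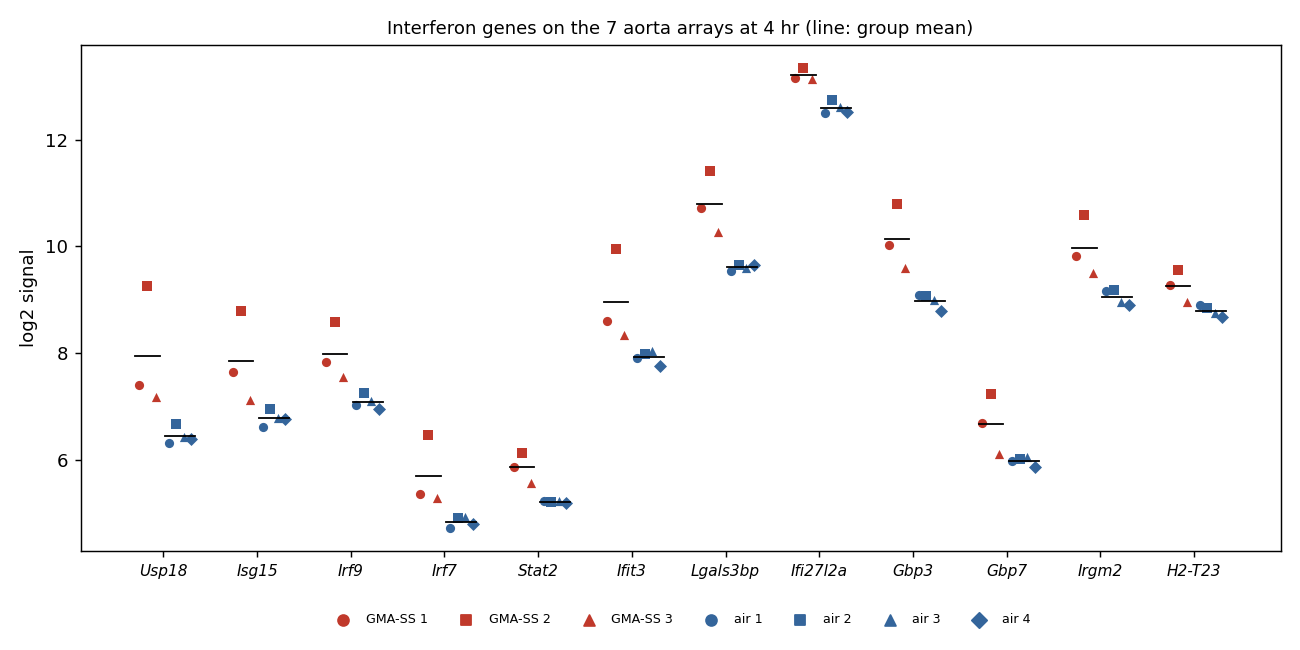
Log2 signal (vertical axis) of 12 interferon genes (horizontal axis) on the 7 aorta arrays at 4 hr, GMA-SS left (red) and air right (blue) in each column, with a line at the group mean. In every column the 3 GMA-SS arrays lie above the 4 air arrays and GMA-SS replicate 2 (square) is highest, for *Usp18* at 9.26, with 7.41 and 7.18 on the other GMA-SS arrays and 6.31 to 6.68 in air. *Irf7* was not above background on any air array. The 12 genes shown all lie apart, as do 33 higher genes of the 106 measured interferon genes, while others, such as *Rsad2* and *Ifitm3*, overlap. For genes named among the highest folds, lying apart was a condition of the choice.

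Antiviral effectors are the proteins that block steps of viral growth, and 27 of 55 listed genes were measured. All 27 had a mean above air, 15 were higher past the study's thresholds and 15 lay above air on every GMA-SS array. Of all genes 1.73% were higher past these thresholds and 3.61% lay above air on every GMA-SS array. Their median log2 fold change was 0.42, and 0.18 without GMA-SS replicate 2, which was the highest of the 7 arrays for 25 of them. *Lgals3bp*, a secreted binding partner of galectins, had 10.73, 11.41 and 10.27 in GMA-SS and 9.55, 9.64, 9.60 and 9.65 in air. The 4 air arrays lay close together, and every GMA-SS array was well above them. *Ifi27l2a*, a small membrane protein gene, had 13.15, 13.35 and 13.13 in GMA-SS and 12.50, 12.74, 12.61 and 12.52 in air. It was 1.53-fold higher (log2 fold change 0.62, SE 0.11, unadjusted p 3.7e-05, adjusted p 0.364), and its 3 GMA-SS arrays lay closer to each other than those of *Lgals3bp*. With array weights its adjusted p was 0.023.

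*Ifit3*, which binds viral RNA with its IFIT partners, had 8.61, 9.95 and 8.34 in GMA-SS and 7.92, 7.98, 8.04 and 7.77 in air. *Ifit3b*, its near-identical copy, had 7.04, 8.36 and 6.90 in GMA-SS and 6.74, 6.65, 6.39 and 6.49 in air. Their log2 fold changes were 1.04 (SE 0.38) and 0.86 (SE 0.31), and 0.55 and 0.40 without GMA-SS replicate 2. As the copies share sequence the probes may not tell them apart. *Cmpk2*, a mitochondrial nucleotide kinase, had 7.62, 8.68 and 7.57 in GMA-SS and 7.25, 7.31, 7.11 and 7.36 in air. *Eif2ak2*, the kinase PKR, which halts translation on double-stranded RNA, had 8.46, 8.97 and 8.43 in GMA-SS and 8.17, 8.31, 8.08 and 8.15 in air. Both were above air on every GMA-SS array. *Oas2*, which makes the 2-5A signal that activates RNase L, was above background on each of the 3 GMA-SS and on 0 of 4 air arrays and was at least 1.41-fold higher in GMA-SS.

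Other effectors overlapped between the groups. *Rsad2*, viperin, had 9.83, 11.10 and 9.82 in GMA-SS and 9.55, 9.87, 9.65 and 9.73 in air, where air replicate 2 exceeded GMA-SS replicates 1 and 3. *Ifitm3*, which blocks entry of viruses, had 11.39, 11.64 and 11.11 in GMA-SS and 11.02, 11.19, 11.09 and 10.99 in air. *Bst2*, tetherin, had 7.78, 8.60 and 8.08 in GMA-SS, and its lowest air array had 7.37 and its highest more than GMA-SS replicate 1. *Ifitm3* and *Bst2* missed the unadjusted threshold. Several well-known members could not be read at all, since *Ifit1*, *Mx1* and *Oas1a* were above background on 0 of 7 arrays, and *Mx2* and the chemokine gene *Cxcl10* on 1 GMA-SS array and 0 air arrays.

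The interferon-inducible GTPases attack the vacuoles of microbes inside cells. Of 18 listed genes 10 were measured, all with a mean above air. Those higher past the study's thresholds were 5, beside 1.73% of all genes. Every GMA-SS array was above air for 4, beside 3.61% of all genes. Their median log2 fold change was 0.51, and 0.28 without GMA-SS replicate 2. *Gbp3* had 10.04, 10.80 and 9.60 in GMA-SS and between 8.79 and 9.09 in air. *Irgm2* had 9.81, 10.59 and 9.50 in GMA-SS and 9.17, 9.19, 8.96 and 8.90 in air, a 1.88-fold difference (log2 fold change 0.91, SE 0.27, and 0.60 without GMA-SS replicate 2). *Gbp7* had 6.70, 7.24 and 6.11 in GMA-SS and 5.97, 6.02, 6.05 and 5.87 in air. For all 3 the groups were apart, and for *Gbp7* GMA-SS replicate 3 was only just above air replicate 3.

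Sensors of viral nucleic acid start interferon production. Of 19 listed genes of sensors and their adaptors 12 were measured, 8 with a mean above air and 4 below. Those higher past the study's thresholds were 2, beside 1.73% of all genes. The median was 0.05. *Trim56*, a ubiquitin ligase of the STING pathway, had 7.66, 7.83 and 7.70 in GMA-SS and 7.44, 7.58, 7.49 and 7.49 in air. *Ddx58*, the RNA sensor RIG-I, had 5.92, 6.36 and 5.85 in GMA-SS and 5.26, 5.42, 5.77 and 5.55 in air, with a log2 fold change of 0.55 (SE 0.19). Both were above air on every GMA-SS array. *Dhx58*, the related regulator LGP2, had 6.58, 7.19 and 6.78 in GMA-SS and 6.48, 6.34, 6.53 and 6.66 in air, which overlap. *Ifih1*, the sensor MDA5, was above background on 0 of 7 arrays.

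Antigen presentation is the next arm of the response. Of 29 listed genes of MHC class I and peptide loading 18 were measured, 14 with a mean above air, with a median of 0.11. Those higher past the study's thresholds were 3, beside 1.73% of all genes. *H2-T23*, a nonclassical class I gene, had 9.28, 9.56 and 8.96 in GMA-SS and 8.91, 8.85, 8.76 and 8.68 in air, and *Psmb9*, an immunoproteasome subunit, 8.57, 8.67 and 8.12 in GMA-SS and 8.05, 8.09, 8.05 and 7.91 in air. Their groups were apart. Of 14 class II genes 9 were measured, with a median of 0.20, and 8 of them had a mean above air. The 1 past the study's thresholds, beside 1.73% of all genes that passed higher, was *H2-Aa*, an antigen-binding chain. It had 9.85, 9.84 and 9.51 in GMA-SS and 9.12, 9.29, 9.30 and 9.14 in air. Averaged, the class II list was 8.53, 8.57 and 8.14 in GMA-SS and 8.15, 8.27, 8.21 and 8.22 in air. Replicate 3 of GMA-SS was thus the lowest of all 7 arrays. None of the 6 measured interferon-induced chemokines passed, which says little, since of all genes 1.73% passed higher and 1.99% lower.

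Macrophage markers had a like order of mice. The mean of the 23 measured macrophage and monocyte genes was 8.25, 8.37 and 7.87 in GMA-SS and 7.96, 8.05, 8.07 and 8.06 in air. It was above air in GMA-SS replicates 1 and 2 and below it in replicate 3. *C1qc*, a complement gene of tissue macrophages, had 9.15, 9.49 and 8.71 in GMA-SS and 8.88, 8.94, 8.94 and 8.93 in air, and *Adgre1*, the F4/80 antigen, 7.34, 7.25 and 6.54 in GMA-SS and 6.67, 6.79, 6.92 and 6.99 in air. Of the 23 genes 20 had a mean above air and 1, *Fcgr1*, was higher past the study's thresholds, beside 1.73% of all genes. GMA-SS replicate 3, low in macrophage markers, was within the air range for *Rsad2* and *Ifitm3* and above every air array for *Stat2*. It was also above every air array for *Usp18*, *Isg15*, *Lgals3bp* and *Gbp3*, but for these lying apart was a condition of the choice. Among the 106 measured interferon genes 33 were above all air arrays on all 3 GMA-SS arrays, beside 3.61% of all genes. Red cell genes overlapped, with a list mean of 8.33, 8.22 and 8.09 in GMA-SS and 8.14, 8.12, 8.06 and 8.31 in air. The part of macrophage or blood RNA in the interferon values was not tested.

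Genes of the vessel wall were compared next. Of the 110 genes of smooth muscle, elastic fiber, collagen, endothelium and adventitial fibroblasts 93 were measured. Past the study's thresholds 4 were higher and 0 lower, beside 1.73% and 1.99% of all genes, and the median log2 fold change was 0.04. Contractile genes had a median of -0.02 over 20 genes, none past the thresholds. *Acta2*, smooth muscle actin, had 13.34, 13.31 and 13.21 in GMA-SS and 13.31, 13.22, 13.21 and 13.38 in air, a log2 difference of 0.01 (SE 0.06), while *Tagln*, transgelin, lay between 8.55 and 8.86 in GMA-SS and between 8.65 and 9.06 in air.

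Fibrillar collagens gave 2 of these 4 wall genes. *Col1a2*, a chain of type I collagen, had 9.54, 9.93 and 9.47 in GMA-SS and 9.21, 8.91, 9.15 and 9.34 in air, a log2 fold change of 0.49 (SE 0.15). *Col3a1*, type III collagen, had 8.85, 9.16 and 8.91 in GMA-SS and 8.79, 8.47, 8.70 and 8.74 in air, a log2 fold change of 0.30 (SE 0.09). On each GMA-SS array both lay above all air arrays. *Col1a1*, the partner chain of *Col1a2*, overlapped between groups, with 9.56, 9.86 and 9.43 in GMA-SS and 9.50, 9.08, 9.41 and 9.53 in air. Of the 13 measured collagen genes 12 had a mean above air, and GMA-SS replicate 2 was the highest of the 7 arrays for the same number. The list's median was 0.11, and 0.00 without that array. *Loxl1*, which crosslinks elastin, and *Podxl*, a sialomucin of the endothelial surface, were the other wall genes past the thresholds. *Loxl1* had 11.61, 11.70 and 11.46 in GMA-SS and 11.41, 11.39, 11.36 and 11.48 in air, and *Podxl* 8.53, 8.56 and 8.78 in GMA-SS and 8.17, 8.28, 8.39 and 8.58 in air. Both overlapped between the groups. Without the 3 arrays that hold skeletal muscle neither was past the thresholds (unadjusted p 0.082 for *Loxl1* and 0.285 for *Podxl*), nor was *Loxl1* with the skeletal muscle mean as a covariate (unadjusted p 0.058). *Pdgfrb*, a receptor of mural cells outside the wall lists, had 7.45, 7.58 and 7.32 in GMA-SS and 7.27, 7.03, 7.32 and 7.23 in air.

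Genes of endothelial activation and vascular tone were examined next. Of 12 measured genes of endothelial activation 10 had a mean above air and 1 was higher past the study's thresholds, beside 1.73% of all genes. This was *Vcam1*, an adhesion molecule for leukocytes, with 8.26, 8.53 and 8.09 in GMA-SS and 8.05, 8.10, 7.91 and 7.96 in air, where air replicate 2 lay just above GMA-SS replicate 3. Of 29 measured vasomotor genes 1 passed, a share near that of all genes, of which 1.73% passed higher and 1.99% lower. It was *Adra2a*, an adrenergic receptor, with 7.08, 6.99 and 7.47 in GMA-SS and 6.88, 7.08, 6.86 and 6.38 in air. The highest was GMA-SS replicate 3, the array that also held most of the sympathetic neuron genes, whose part in this value was not tested. Without that array the log2 fold change of *Adra2a* was 0.23 in place of 0.38.

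Among genes past the study's thresholds whose groups did not overlap, the largest folds were smaller for lower genes than for higher ones. *Tfrc*, *Ltv1*, *Osbpl6*, *Coq8a* and *Cpeb3* were chosen from this set, so their separation was a condition of the choice. *Tfrc*, the receptor that takes up iron-laden transferrin, had 9.04, 8.93 and 8.96 in GMA-SS and 9.68, 9.12, 9.55 and 9.51 in air. The GMA-SS arrays were lower without overlap, and air replicate 2 was the air array nearest to them. *Slc11a2*, the iron transporter DMT1, had 6.99, 6.72 and 6.67 in GMA-SS and 7.12, 7.10, 6.91 and 7.06 in air, and *Mt2*, metallothionein 2, had 7.01, 6.42 and 6.92 in GMA-SS and 6.55, 6.49, 6.11 and 6.13 in air. These 3 of the 19 measured metal handling genes passed the study's thresholds, *Tfrc* and *Slc11a2* lower and *Mt2* higher, beside 1.99% and 1.73% of all genes, and the list's median was -0.03.

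*Ltv1*, a factor that matures the small ribosomal subunit, had 6.49, 6.46 and 6.48 in GMA-SS and between 6.84 and 7.07 in air. The 3 GMA-SS arrays were close together and apart from air. Of 28 measured ribosome assembly genes 21 had a mean below air and 5 lay below air on every GMA-SS array, beside 5.3% of all genes, with a median of -0.06. Past the study's thresholds 2 were lower, *Ltv1* and *Gnl3*, beside 1.99% of all genes. *Gnl3*, nucleostemin, had 9.28, 9.36 and 9.22 in GMA-SS and 9.50, 9.43, 9.50 and 9.36 in air. *Osbpl6*, an oxysterol-binding protein, had 7.06, 7.14 and 7.12 in GMA-SS and 7.53, 7.56, 7.39 and 7.56 in air. *Coq8a*, a kinase-like protein of coenzyme Q synthesis, had 6.58, 6.56 and 6.60 in GMA-SS and 6.86, 7.19, 6.94 and 7.01 in air, and *Cpeb3*, which controls translation of stored mRNA, 6.79, 6.54 and 6.56 in GMA-SS and 7.27, 6.97, 6.91 and 7.14 in air. The log2 changes of *Osbpl6*, *Coq8a* and *Cpeb3* were -0.40, -0.42 and -0.44, and lying below air was a condition of their choice.

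Stress genes were examined as well. *Gclm*, a subunit of the enzyme that starts glutathione synthesis, had 9.09, 8.99 and 9.02 in GMA-SS and 8.83, 8.78, 8.72 and 8.84 in air, higher without overlap. It was the single gene of 24 measured oxidative stress genes past the study's thresholds. *Hspa5*, the chaperone of the endoplasmic reticulum, had 6.16, 6.26 and 6.62 in GMA-SS and 5.46, 6.05, 6.12 and 5.96 in air, and was the single one of 19 heat shock and unfolded protein genes. These counts stand beside 1.73% of all genes that passed higher and 1.99% lower.

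The comparison was then made without GMA-SS replicate 3 and air replicates 2 and 3, which hold skeletal muscle, leaving 2 arrays in each group. In this fit 0 genes passed after adjustment, and 254 had an unadjusted p under 0.05 with a fold of at least 1.1, 156 higher and 98 lower. Of the 170 higher genes 76 were still past the thresholds, 44.7% of the first list and 48.7% of the second. Of the 196 lower genes 53 were, 27.0% of the first and 54.1% of the second. Of the 31 interferon genes 25 were still past the thresholds, among 36 in all. The median of the interferon genes was 0.33 in place of 0.22, that of antiviral effectors 0.58 in place of 0.42, and *Usp18* had 1.98 in place of 1.49. GMA-SS replicate 3, the array left out, was the lowest of its group for most of these genes. For the vessel wall lists the median was 0.06 in place of 0.04. That of skeletal muscle genes was -0.05 in place of -0.32, which follows from the choice, since the arrays were left out for holding these genes. With the skeletal muscle mean as a covariate on all arrays, 142 of the 170 higher and 166 of the 196 lower genes were still past the thresholds, and 28 of the 31 interferon genes.

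**Figure D3:**
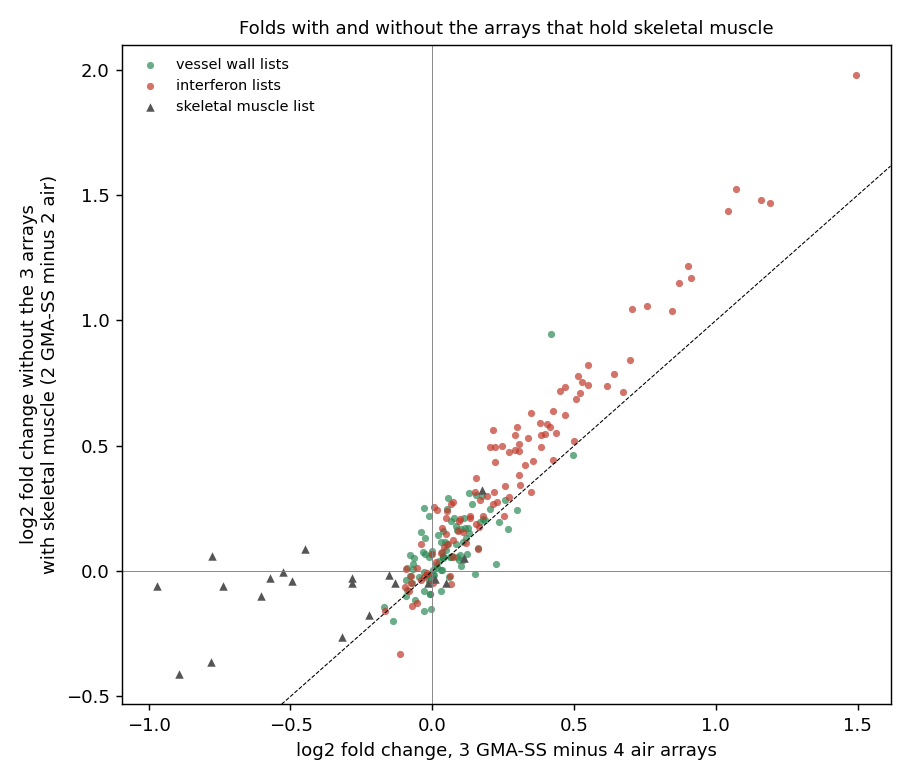
Log2 fold change, GMA-SS minus air, of each measured gene of the vessel wall, interferon and skeletal muscle lists with all 7 arrays (horizontal axis) and without the 3 arrays that hold skeletal muscle (vertical axis), with a dashed line where the values are equal. Skeletal muscle genes lie mostly below 0 on the horizontal axis (median -0.32) and near 0 on the vertical (median -0.05), which follows from the choice of the arrays left out. Interferon genes lie mostly above 0 on both (medians 0.22 and 0.33).

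The same tissue at 28 d, with 4 GMA-SS and 4 air arrays from other mice, shows how far the 4 hr values lasted. No gene differed between the GMA-SS effect at 28 d and that at 4 hr after adjustment (0 of 9850, 0%, lowest adjusted p 0.999 by limma, 381 genes with an unadjusted p under 0.05). The median log2 fold change of the 106 interferon genes was 0.09 at 28 d and 0.22 at 4 hr, and 82 genes had a mean above air at 28 d. Antiviral effectors had a median of 0.20 at 28 d and 0.42 at 4 hr, the GTPases 0.12 and 0.51. *Usp18* had a log2 fold change of 1.02 (SE 0.42) at 28 d, and the difference from 4 hr was -0.48 (SE 0.62). *Ifi27l2a* had 0.05 (SE 0.10) at 28 d, a difference of -0.57 (SE 0.14, unadjusted p 0.0013, adjusted p 0.999). *Col3a1* had -0.10 (SE 0.08) at 28 d, a difference of -0.40 (SE 0.12), and *Tfrc* 0.06 (SE 0.18), a difference of 0.55 (SE 0.26). All 12 measured heart genes had a mean below air at 28 d, with a median of -0.66, and 10 of 12 at 4 hr, with a median of -0.12. The part of this tissue in the values at either time was not tested.

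**Figure D4:**
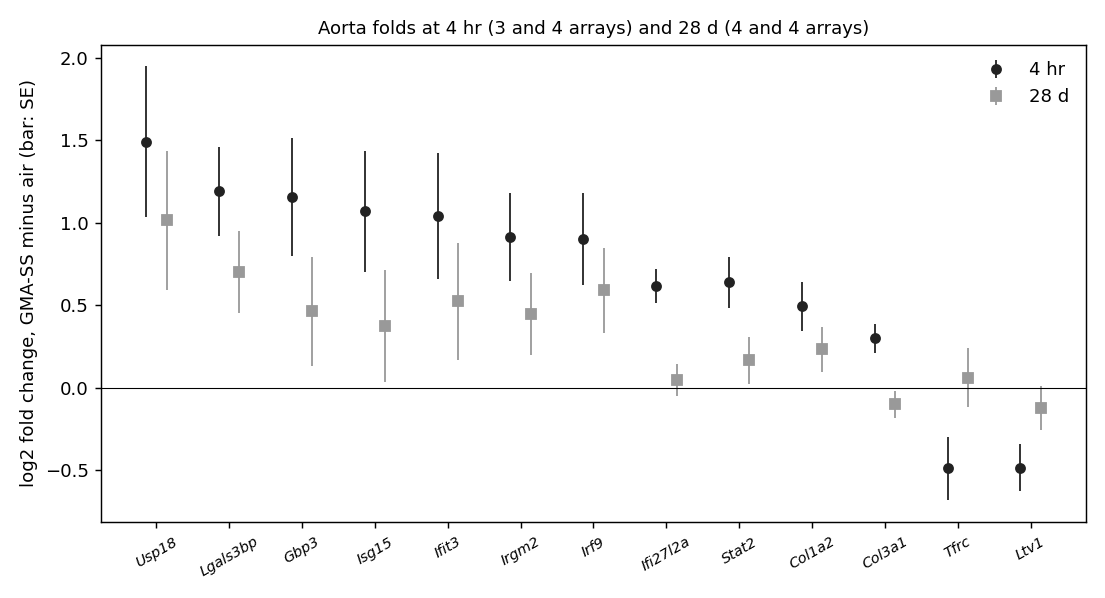
Log2 fold change, GMA-SS minus air (vertical axis), of 13 genes (horizontal axis) in aorta at 4 hr (circles, 3 GMA-SS and 4 air arrays) and at 28 d (squares, 4 and 4 arrays), with bars of 1 SE. *Usp18* has 1.49 at 4 hr and 1.02 at 28 d, *Ifi27l2a* 0.62 and 0.05, and *Tfrc* -0.49 and 0.06. No difference between the times passed after adjustment.

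By their labels the blood arrays at 4 hr come from the same mice. Blood and aorta were extracted with different kits and normalized apart, so that only the order of the mice within a tissue can be read. Over the 99 interferon genes measured in both, the mean in aorta was 7.77, 8.09 and 7.59 for GMA-SS mice 1 to 3 and 7.50, 7.56, 7.50 and 7.49 for air mice 1 to 4. In blood it was 9.50, 9.59 and 9.37 for the GMA-SS mice and 9.30, 9.36, 9.27 and 9.29 for the air mice. In both tissues GMA-SS mouse 2 was the highest, mouse 1 next and mouse 3 the lowest of its group, and air mouse 2 was the highest of the air mice. The GMA-SS mice lay above all air mice in both, mouse 3 in blood by the smallest margin. Each mouse had the same position on the blood beadchip as on that of aorta. The order of the mice and that of position therefore cannot be told apart.

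Single genes did not always share this order. *Irf7* in blood had 10.93, 11.22 and 10.98 in GMA-SS and 9.53, 9.84, 9.55 and 9.93 in air. *Usp18* in blood had 9.11, 9.15 and 8.80 in GMA-SS and 8.02, 8.13, 8.06 and 8.25 in air, so that GMA-SS mouse 2 did not stand apart there as it did in the aorta. *Gbp3*, whose groups were apart in aorta, overlapped in blood, with 8.37, 8.66 and 8.28 in GMA-SS and 8.54, 8.55, 8.31 and 8.19 in air.

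**Figure D5:**
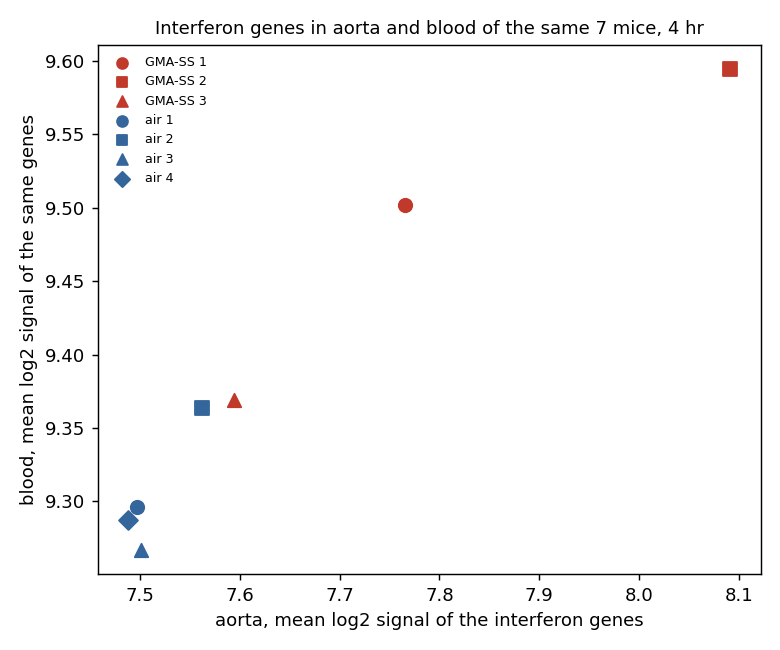
Mean log2 signal of 99 interferon genes in aorta (horizontal axis) and in blood (vertical axis) of the same 7 mice, 3 GMA-SS (red) and 4 air (blue). GMA-SS mouse 2 is highest in both, at 8.09 in aorta and 9.59 in blood, and the air mice lie between 7.49 and 7.56 in aorta and between 9.27 and 9.36 in blood.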

How the data were processed

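Signals, detection p-values and normalized values of 15 aorta arrays were used, with the blood arrays of the same mice. The average signal, a linear intensity, and its detection p-value were exported from BeadStudio by the authors, without normalization. The normalized log2 values that the authors deposited, made with lumi and limma according to the paper, served as an alternative. Background was removed by normexp with background parameters worked out from the steps of the detection p-values (1 in 798), 16 was added, log2 was taken and the aorta arrays were quantile-normalized with limma 3.58.1 (R 4.3.3). Of 18138 entries 9944 had a detection p under 0.05 on at least 3 aorta arrays. The brightest entry of each symbol was used, giving 9850 genes. The filter also removed 79 bright entries of several probes, *B2m* among them. Symbols came from Entrez numbers for 16590 entries, RefSeq accessions for 883 and the file itself for 665. The aorta arrays at 4 hr had 8780 to 9073 entries above background, and their 75th percentile was 3.42 to 3.68 times background. The number of arrays limits the precision.

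One mean per group and time was fitted over the 15 arrays with lmFit and eBayes (trend), and p-values were adjusted by the method of Benjamini and Hochberg over all genes. Group means at 28 d share the estimate of spread with those at 4 hr. The arrays of a group are separate mice. An exact permutation test of 3 against 4 arrays cannot go below a two-sided p of 0.0571 and was not used. The 40 gene lists, the members and the named genes were chosen with earlier results of these data known. Named are the genes of the paper's text, the 10 highest and 10 lowest folds, and the members of each list with the lowest p. The highest and lowest folds were ranked among genes past the study's thresholds whose groups do not overlap. Their separation was thus a condition of the choice. Further list members, given for their role, were chosen after their values were seen. The values of 1 gene chosen in this way are not reported here. Alternatives were no background correction, 75th percentile scaling, no detection filter or a detection p under 0.01, the 7 arrays alone, array weights, every entry counted, a replicate block, scores of skeletal muscle or of 3 tissues as covariates, leaving out the 3 arrays with skeletal muscle, and leaving out each array. A filter sparing bright entries, and a pair of covariates for skeletal muscle and nerve, were chosen after seeing the data. The procedure was tested on simulated data. Promoter sequences are from RefSeq, GRCm38.p6. Figures were drawn with matplotlib 3.10.9.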

Additional observations from a re-analysis of the deposited data

Results flagged for a closer look

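In 3 lists 1 of the 4 air arrays stood apart from the others, by a gap that took more of the group's range than Dixon's limit for 4 values. The macrophage and monocyte list had a low mean in air replicate 1 (7.96, against 8.05 to 8.07 on the other air arrays), with a ratio of 0.851. The platelet list had a high mean in air replicate 4 (6.79, against 6.12 to 6.20), with a ratio of 0.881. The interferon lists had a high mean in air replicate 2 (7.44, against 7.37 to 7.38 on the others), with a ratio of 0.91. Chance alone gives such a gap in about 1 of 20 groups, and 40 lists were looked at. The interferon mean of air replicate 2 remained under that of each GMA-SS array, of which the lowest was 7.46.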

How the results depend on the processing

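The count of genes called after adjustment was 0 in every alternative but array weights, with 2. The 366 genes past the study's thresholds became 691 with the 7 arrays alone, 107 with the authors' normalized values, 801 with array weights, 618 with scores of 3 tissues and 585 with skeletal muscle and nerve scores, and 222 to 371 when 1 array was left out. Their higher share, 46.4%, was 74.8% with the authors' values, 61.4% without the 3 arrays with skeletal muscle, 63.3% with muscle and nerve scores and 57.1% without GMA-SS replicate 3. Genes whose groups do not overlap numbered 878, and 1364 without the detection filter. The median of antiviral effectors was 0.14 with the authors' values and 0.18 to 0.52 with 1 array left out. The median of all interferon genes stayed between 0.08 and 0.38. *Acta1*, at -0.78, had 0.24 with the skeletal muscle score, 0.17 with 3 scores, 0.060 without the 3 arrays, 0.73 with muscle and nerve scores, and -3.22 to 0.62 with 1 array left out, among these 0.47 without GMA-SS replicate 1, 0.42 without GMA-SS replicate 2, 0.01 without air replicate 2 and 0.62 without air replicate 3. Replicate numbers do not pair these mice, as same-numbered arrays deviated together at 0.117, -0.015 and 0.49, and 1 of 3 GMA-SS arrays was closest to the air array of its own number. With the replicate block 0 genes were called and 257 passed the thresholds. Dim genes with 3 and 4 arrays set the limit of what could be read. Beyond the values given, the cause of these shifts was not tested.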
